A study of Mus musculus with 8 samples.

Results

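The genes of cohesin, of its regulators and of CTCF were taken from an RNA-seq table of mouse embryonic stem cells (ESCs) by their symbols: *Smc1a*, *Smc3*, *Rad21*, *Stag1*, *Stag2*, *Nipbl*, *Mau2*, *Wapl*, *Pds5a* and *Ctcf*. Each symbol had a row on a main chromosome, which gave 10 of the 50902 genes of the table. All 10 passed the filter on low values, a mean of at least 0.2 RPM (reads-per-million of the library total), which left 12634 genes to test.

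The study asked which genes change when BAZ2A, a chromatin protein also known as TIP5, lacks its TAM domain, a part that binds RNA. Polyadenylated RNA was sequenced in 4 libraries of ESC + F/H-BAZ2Ar WT and 4 of ESC + F/H-BAZ2Ar ΔTAM. Both are lines of E14, a mouse ESC line, grown in N2B27 medium with LIF and 2i, a pair of kinase inhibitors that holds ESCs in the naive state. Both were transfected with siRNA against *Baz2a* and collected 3 days later, so that endogenous *Baz2a* was targeted in the controls too. ESC + F/H-BAZ2Ar WT carried an siRNA-resistant, Flag- and HA-tagged wild-type BAZ2A inserted by PiggyBac transposase, and ESC + F/H-BAZ2Ar ΔTAM the same construct without the TAM domain. According to the study's methods the lines were grown from single cells and screened by western blot, so that a difference between the domain forms and a difference between separately derived lines cannot be told apart. Nothing in the labels says that the libraries of a condition came from separate cultures, and the p-values measure only the spread between these libraries.

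Cohesin is a ring of SMC1A, SMC3 and RAD21, closed by either STAG1 or STAG2, that holds sister chromatids together and folds chromatin into loops. NIPBL and MAU2 load the ring and drive loop growth, WAPL together with PDS5 proteins releases it, and CTCF, a zinc finger protein bound to its own DNA motif, stops loops at domain borders. In ESCs these proteins shape the contacts between enhancers and pluripotency genes.

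Library totals, as the step of 1 read in the deposited values gives them, were 48.7 to 51.6 M reads in ESC + F/H-BAZ2Ar WT and 43.8 to 58.1 M reads in ESC + F/H-BAZ2Ar ΔTAM, with 14.9% to 15.0% of them on genes. What else these totals count is not given in the sources used here, and RPM are relative to them. The 10 genes had between 410 reads (*Stag2*) and 3732 reads (*Rad21*) in a library. *Baz2a*, for which reads of the endogenous gene and of the transgene cannot be told apart, had 375, 387, 398 and 422 RPM in ESC + F/H-BAZ2Ar WT and 643, 700, 699 and 713 RPM in ESC + F/H-BAZ2Ar ΔTAM, so the *Baz2a* RNA counted differed between the conditions in amount as well as in the form expressed (log2 fold change 0.80). ESC markers were high in every library: *Pou5f1*, *Nanog*, *Sox2* and 5 others summed to 1086 to 1098 RPM in ESC + F/H-BAZ2Ar WT and to 949 to 1011 RPM in ESC + F/H-BAZ2Ar ΔTAM, where 4 of the 8 fell (*Sox2*, *Klf4*, *Esrrb* and *Dppa5a*) and none rose at a limma adjusted p under 0.05, against 21.9% and 21.6% of all genes tested. The 5 markers of primitive endoderm summed to 0.814 to 0.885 and 0.957 to 1.22 RPM, mostly *Gata4* (0.610 and 0.812 RPM on average). Those of fibroblasts summed to 3.63 to 4.19 and 3.52 to 4.67 RPM, with *Col3a1* at 0 in all libraries. Nearly all of the fibroblast sum was *Pdgfrb*, at 3.71 and 3.75 RPM on average. The markers of primed cells summed to 7.04 to 7.79 and 6.64 to 7.88 RPM, with *Fgf5* at 0 in all libraries. Of the primed markers 2 passed the filter: *Lef1* rose from 1.50 to 2.26 RPM on average (limma adjusted p = 0.000159), and *T* had 5.66 and 5.02 RPM (limma adjusted p = 0.0696). The part of these levels in the results below was not tested. In bulk RNA, fewer cells of a type and less RNA per cell cannot be told apart.

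Libraries also differed within a condition. The 510 transcripts with less than 40% GC were compared with their mean over all 8 libraries, so that differences between conditions enter these values too. In ESC + F/H-BAZ2Ar WT replicate 4 and ESC + F/H-BAZ2Ar ΔTAM replicate 1 they stood at the median 0.093 and 0.071 (log2) above that mean. In ESC + F/H-BAZ2Ar ΔTAM replicate 2 they stood at -0.089. The median in the other 5 libraries was between -0.036 and 0.030. The fold changes and calls of the 10 genes were also computed without these 3 libraries, an alternative chosen after seeing the data.

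The promoters of 7 of the 10 genes were in the RefSeq table used (GRCm38.p6, 250 bases before to 50 bases after the transcription start), and those of *Rad21*, *Stag2* and *Nipbl* were not. The ring genes *Smc1a* and *Smc3* were lower in ESC + F/H-BAZ2Ar ΔTAM, and the release factor *Wapl* and *Ctcf* were higher. The calls of *Smc3* and *Wapl* were lost in some alternative fits, given below. The windows of these 4 genes are printed so that genes that moved in opposite directions can be read side by side. They are written 5′ to 3′ on the + strand, which is the strand of all 4 genes, with matches to the motifs listed after them in capitals.
Smc1a promoter, chrX:152016178-152016477: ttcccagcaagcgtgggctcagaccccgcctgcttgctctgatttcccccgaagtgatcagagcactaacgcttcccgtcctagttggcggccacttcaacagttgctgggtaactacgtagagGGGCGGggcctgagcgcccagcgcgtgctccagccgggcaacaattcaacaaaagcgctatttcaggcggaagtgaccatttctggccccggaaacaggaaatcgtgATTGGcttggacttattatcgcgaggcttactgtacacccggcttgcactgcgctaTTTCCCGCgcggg
Smc3 promoter, chr19:53600146-53600445: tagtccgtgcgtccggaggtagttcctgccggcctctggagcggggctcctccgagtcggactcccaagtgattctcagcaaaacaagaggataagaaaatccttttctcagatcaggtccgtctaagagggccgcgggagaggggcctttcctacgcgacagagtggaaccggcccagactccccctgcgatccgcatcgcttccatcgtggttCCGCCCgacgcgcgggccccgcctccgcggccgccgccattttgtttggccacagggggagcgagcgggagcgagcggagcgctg
Wapl promoter, chr14:34673678-34673977: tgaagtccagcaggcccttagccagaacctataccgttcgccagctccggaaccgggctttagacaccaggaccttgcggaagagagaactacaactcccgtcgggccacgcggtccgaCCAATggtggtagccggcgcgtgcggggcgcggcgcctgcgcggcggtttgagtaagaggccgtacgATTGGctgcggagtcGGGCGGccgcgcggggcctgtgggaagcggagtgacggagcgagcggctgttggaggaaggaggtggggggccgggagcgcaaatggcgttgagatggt
Ctcf promoter, chr8:105636288-105636587: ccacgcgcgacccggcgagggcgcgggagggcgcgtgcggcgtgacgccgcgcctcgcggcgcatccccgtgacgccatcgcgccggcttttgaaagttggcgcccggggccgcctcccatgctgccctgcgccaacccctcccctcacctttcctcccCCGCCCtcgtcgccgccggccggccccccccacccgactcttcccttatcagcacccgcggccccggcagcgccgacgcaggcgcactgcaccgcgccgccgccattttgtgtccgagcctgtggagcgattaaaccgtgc

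The windows were searched on both strands for the SP/KLF box GGGCGG, the NF-Y box CCAAT, the ETS letters CCGGAAG, the YY1 letters AAGATGGC, the E2F letters TTTCCCGC and the NRF1 letters GCATGCGC. No match in the 4 printed windows overlapped another. The SP/KLF box was in 7 of the 8 windows of these genes (*Mau2* has 2 windows), and in 35.7% of the 32841 windows of the table. The NF-Y box was in 3 of the 8 (*Smc1a*, *Stag1* and *Wapl*) against 37.4% of all windows, and the E2F letters were in 2 (*Smc1a* and *Stag1*) against 1.07%. The ETS, YY1 and NRF1 letters were in 0 of the 8, against 8.86%, 2.75% and 2.71% of all windows. GC content was 58.3% in the *Smc1a* window, 65% in that of *Smc3*, 67% in that of *Wapl* and 75.3% in that of *Ctcf*, with a median of 52.7% over all windows. These matches describe the letters in the windows and were not compared with the expression differences by any test.

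Of the 10 genes, 3 were higher and 4 were lower in ESC + F/H-BAZ2Ar ΔTAM at an adjusted p under 0.05 in limma, and 3 were not called. The background is broad, since 43.5% of all genes tested were called, 21.6% as higher and 21.9% as lower. Those higher were *Rad21*, *Wapl* and *Ctcf*, by 9.50% to 11.1%, and those lower were *Smc1a*, *Smc3*, *Stag2* and *Nipbl*. The 4 lower became 2 (*Smc1a* and *Stag2*) in 5 alternatives of filter, scale or eBayes, and when replicate 2 or 4 of ESC + F/H-BAZ2Ar WT or replicate 2 or 3 of ESC + F/H-BAZ2Ar ΔTAM was left out. *Stag1*, *Mau2* and *Pds5a* were not called. In 4 of the 10 the libraries of the conditions did not overlap, 2 higher (*Rad21*, *Ctcf*) and 2 lower (*Smc1a*, *Stag2*), while 37.8% of all genes tested did not overlap. None of the 10 passed the study's limits of an absolute log2 fold change of 0.58 with p under 0.05, which 9.58% of all genes tested passed. The median absolute log2 fold change was 0.15 over the 10 genes and 0.18 over all genes tested.

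**Figure D1:**
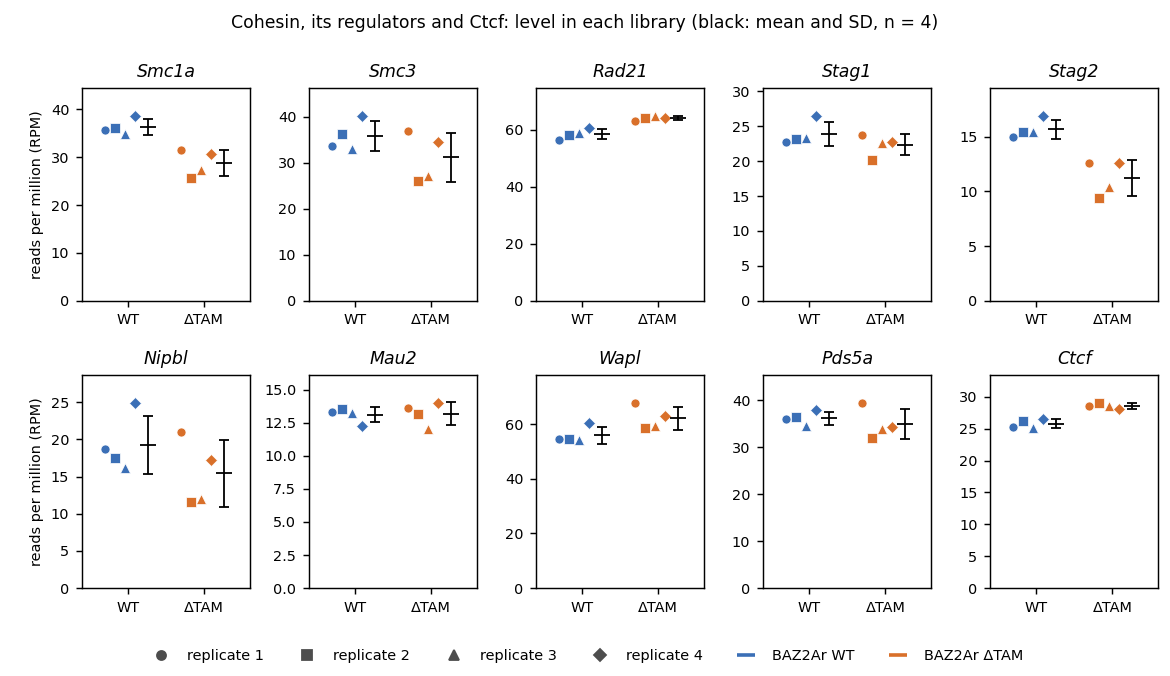
Level of each gene in RPM (vertical axes, starting at 0) in the 4 libraries of ESC + F/H-BAZ2Ar WT (blue) and the 4 of ESC + F/H-BAZ2Ar ΔTAM (orange), with symbols for replicates and the mean and SD in black. The conditions are apart in *Smc1a*, *Stag2*, *Rad21* and *Ctcf*, and *Nipbl* ranges from 16.1 to 24.9 RPM in ESC + F/H-BAZ2Ar WT alone.

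Of the SMC subunits, whose long coiled coils form the sides of the ring, *Smc1a* (chromosome X of mm10, 152016428 to 152062694, + strand) had 35.7, 36.2, 34.8 and 38.7 RPM in ESC + F/H-BAZ2Ar WT and 31.5, 25.7, 27.3 and 30.6 RPM in ESC + F/H-BAZ2Ar ΔTAM. All ESC + F/H-BAZ2Ar ΔTAM libraries were below all ESC + F/H-BAZ2Ar WT libraries, and replicates 2 and 3 were the lowest. *Smc1a* fell by 20.9%, with a log2 fold change of -0.34 (standard error 0.053, 95% interval -0.45 to -0.23, adjusted p = 2.03e-05, limma with Benjamini-Hochberg adjustment over 12634 genes). *Smc1a* has a meiotic paralog, *Smc1b*, which was near the filter at 0.476 and 0.447 RPM on average.

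*Smc3* (chromosome 19, 53600398 to 53645833, + strand), the partner of SMC1A and the subunit that is acetylated when cohesion is established, had 33.6, 36.2, 33.1 and 40.3 RPM in ESC + F/H-BAZ2Ar WT and 37.0, 26.1, 27.2 and 34.5 RPM in ESC + F/H-BAZ2Ar ΔTAM. Replicates 1 and 4 of ESC + F/H-BAZ2Ar ΔTAM lay within the range of ESC + F/H-BAZ2Ar WT and replicates 2 and 3 below it. The log2 fold change of *Smc3* was -0.21 (standard error 0.081, 95% interval -0.38 to -0.041, limma adjusted p = 0.0413). The call was lost in 9 of 22 alternatives, among them robust eBayes (adjusted p = 0.276) and leaving out ESC + F/H-BAZ2Ar WT replicate 2 (0.0875) or 4 (0.145) or ESC + F/H-BAZ2Ar ΔTAM replicate 2 (0.178) or 3 (0.17). The fold change itself was -0.13 without ESC + F/H-BAZ2Ar ΔTAM replicate 2, -0.15 without ESC + F/H-BAZ2Ar ΔTAM replicate 3 or ESC + F/H-BAZ2Ar WT replicate 4, and -0.30 without ESC + F/H-BAZ2Ar ΔTAM replicate 1. The call was kept without the 3 libraries that stood apart in transcripts low in GC, at -0.16 with an adjusted p of 0.0453.

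*Rad21* (chromosome 15, 51962240 to 51991747, − strand), the kleisin that bridges the SMC heads and that separase cuts at anaphase, had 56.6, 58.2, 59.0 and 60.7 RPM in ESC + F/H-BAZ2Ar WT and 63.2, 64.2, 65.02 and 64.3 RPM in ESC + F/H-BAZ2Ar ΔTAM. Each library of ESC + F/H-BAZ2Ar ΔTAM was above each of ESC + F/H-BAZ2Ar WT. *Rad21* rose by 9.50%, with a log2 fold change of 0.13 (standard error 0.033, 95% interval 0.063 to 0.20, limma adjusted p = 0.00276). The ring genes therefore moved in both directions, *Smc1a* and *Smc3* down and *Rad21* up. Of these 3 calls that of *Smc3* was lost in 9 of 22 alternatives.

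The STAG subunits are alternatives in the ring, and cells hold both kinds of complex. *Stag2* (chromosome X, 42149317 to 42277185, + strand) had 15.0, 15.5, 15.4 and 16.9 RPM in ESC + F/H-BAZ2Ar WT and 12.6, 9.36, 10.4 and 12.6 RPM in ESC + F/H-BAZ2Ar ΔTAM. The conditions did not overlap, and the drop was the largest among the 10 genes in this fit: *Stag2* fell by 28.7%, with a log2 fold change of -0.49 (standard error 0.073, 95% interval -0.64 to -0.34, limma adjusted p = 1.24e-05). *Stag1* (chromosome 9, 100597798 to 100959375, + strand) had 22.8, 23.2, 23.3 and 26.5 RPM in ESC + F/H-BAZ2Ar WT and 23.8, 20.2, 22.6 and 22.7 RPM in ESC + F/H-BAZ2Ar ΔTAM. These ranges overlapped, and the log2 fold change of *Stag1* was -0.099 (standard error 0.053, 95% interval -0.21 to 0.0099, limma adjusted p = 0.134). It was -0.049 without ESC + F/H-BAZ2Ar WT replicate 4 and -0.052 without ESC + F/H-BAZ2Ar ΔTAM replicate 2, and -0.026 (limma adjusted p = 0.696) without the 3 libraries that stood apart in transcripts low in GC. *Stag1* was called lower in 1 of 21 alternatives, after a correction for GC content and length with the replicate number in the model (adjusted p = 0.0373).

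Both *Smc1a* and *Stag2* lie on chromosome X, where the median log2 fold change of 424 genes tested was -0.062, against -0.0041 over all genes. The median was between -0.034 and 0.028 on the other chromosomes, which include those of the other 8 genes. The falls of *Smc1a* and *Stag2* were several times the chromosome's median, and any part of the chromosome in them was not tested.

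**Figure D2:**
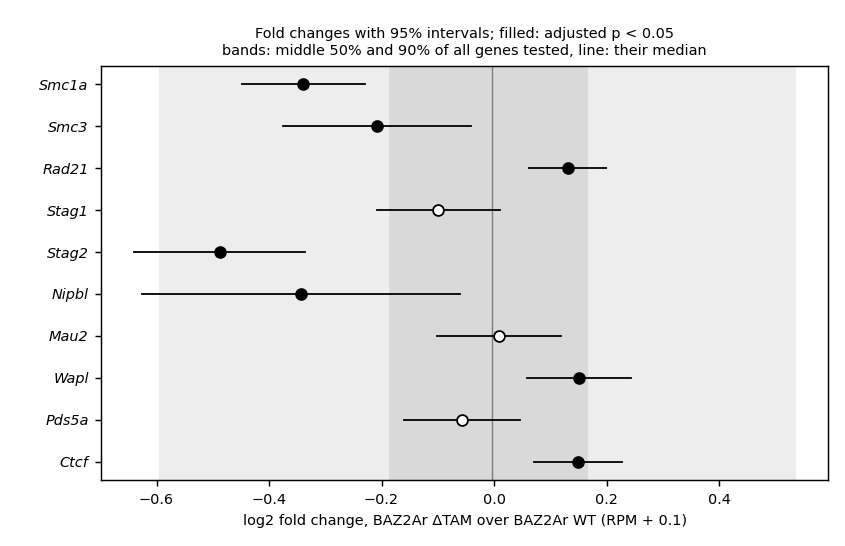
Log2 fold change of each gene, ESC + F/H-BAZ2Ar ΔTAM over ESC + F/H-BAZ2Ar WT (horizontal axis, log2 of RPM + 0.1), with 95% intervals and filled points for an adjusted p under 0.05. Grey bands hold the middle 50% and 90% of all genes tested, and *Smc1a*, *Stag2* and *Nipbl*, at -0.34, -0.49 and -0.34, lie farthest from 0 of the 10.

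Of the loader, *Nipbl* (chromosome 15, 8291225 to 8444463, − strand), the HEAT-repeat protein that stimulates the cohesin ATPase, had 18.7, 17.4, 16.1 and 24.9 RPM in ESC + F/H-BAZ2Ar WT and 21.0, 11.6, 11.9 and 17.3 RPM in ESC + F/H-BAZ2Ar ΔTAM. Replicate 1 of ESC + F/H-BAZ2Ar ΔTAM was above 3 of the ESC + F/H-BAZ2Ar WT libraries, and replicates 2 and 3 were below all of them. The log2 fold change of *Nipbl* was -0.34 with a wide interval (standard error 0.14, 95% interval -0.63 to -0.061, limma adjusted p = 0.0457). The call was lost in 10 of 22 alternatives, including robust eBayes (adjusted p = 0.31) and leaving out ESC + F/H-BAZ2Ar WT replicate 1 (0.0804), 2 (0.0504) or 4 (0.192) or ESC + F/H-BAZ2Ar ΔTAM replicate 2 (0.179) or 3 (0.191). The fold change itself was -0.21 without ESC + F/H-BAZ2Ar WT replicate 4, -0.22 without ESC + F/H-BAZ2Ar ΔTAM replicate 2 and -0.50 without ESC + F/H-BAZ2Ar ΔTAM replicate 1. On log2(RPKM + 0.1) it was -0.17 (limma adjusted p = 0.297). Without the 3 libraries that stood apart in transcripts low in GC the log2 fold change of *Nipbl* was -0.27 with an adjusted p of 0.0191.

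*Mau2* (chromosome 8, 70016123 to 70042734, − strand), the partner that wraps the end of NIPBL, had 13.3, 13.5, 13.2 and 12.3 RPM in ESC + F/H-BAZ2Ar WT and 13.6, 13.1, 11.99 and 13.98 RPM in ESC + F/H-BAZ2Ar ΔTAM. The conditions overlapped throughout, with a log2 fold change of 0.0085 (standard error 0.053, 95% interval -0.10 to 0.12, limma adjusted p = 0.915). The sign of the *Mau2* difference turned in 4 of 22 alternatives.

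Of the release factors, *Wapl* (chromosome 14, 34673928 to 34747983, + strand), which opens the ring at the SMC3 and RAD21 interface, had 54.4, 54.7, 54.1 and 60.4 RPM in ESC + F/H-BAZ2Ar WT and 67.8, 58.6, 59.2 and 62.9 RPM in ESC + F/H-BAZ2Ar ΔTAM. The ranges overlapped in that ESC + F/H-BAZ2Ar WT replicate 4 was above replicates 2 and 3 of ESC + F/H-BAZ2Ar ΔTAM. *Wapl* rose by 11.1%, with a log2 fold change of 0.15 (standard error 0.044, 95% interval 0.059 to 0.24, limma adjusted p = 0.00856). Its call was lost in 2 of 22 alternatives, on log2(RPKM + 0.1) (adjusted p = 0.0783) and in eBayes without a trend (0.0919).

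*Pds5a* (chromosome 5, 65605721 to 65698273, − strand), a scaffold on the ring that works with WAPL in release and is also needed for acetylation of SMC3, had 36.1, 36.5, 34.4 and 37.8 RPM in ESC + F/H-BAZ2Ar WT and 39.4, 32.0, 33.8 and 34.2 RPM in ESC + F/H-BAZ2Ar ΔTAM. Replicate 1 of ESC + F/H-BAZ2Ar ΔTAM was the highest of all libraries and the other 3 were the lowest. The log2 fold change of *Pds5a* was -0.058 (standard error 0.050, 95% interval -0.16 to 0.046, limma adjusted p = 0.368). Without ESC + F/H-BAZ2Ar ΔTAM replicate 1 it was -0.12 with an adjusted p of 0.022, without ESC + F/H-BAZ2Ar ΔTAM replicate 2 it was -0.018 (0.796) and without ESC + F/H-BAZ2Ar WT replicate 4 it was -0.036 (0.609). Its paralog *Pds5b* had 15.8 ± 0.741 RPM (SD, n = 4) in ESC + F/H-BAZ2Ar WT and 16.7 ± 1.43 RPM (SD, n = 4) in ESC + F/H-BAZ2Ar ΔTAM, with a limma adjusted p of 0.267.

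*Ctcf* (chromosome 8, 105636568 to 105682922, + strand), which marks the borders at which cohesin loops stop, had 25.2, 26.1, 25.1 and 26.5 RPM in ESC + F/H-BAZ2Ar WT and 28.5, 29.0, 28.6 and 28.0 RPM in ESC + F/H-BAZ2Ar ΔTAM. The libraries of ESC + F/H-BAZ2Ar ΔTAM were all above those of ESC + F/H-BAZ2Ar WT and lay within 1 RPM of each other. *Ctcf* rose by 10.8%, with a log2 fold change of 0.15 (standard error 0.038, 95% interval 0.071 to 0.23, limma adjusted p = 0.00292). Its germline paralog *Ctcfl* was under the filter, with 1 to 10 reads in a library.

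*Rad21*, *Smc1a*, *Stag2* and *Ctcf* kept their call and their direction in all 22 alternatives. Over these the log2 fold change ran from 0.10 to 0.16 in *Rad21*, from -0.38 to -0.29 in *Smc1a*, from -0.55 to -0.25 in *Stag2* and from 0.12 to 0.16 in *Ctcf*. Genes annotated over the same bases had few reads: the highest, *Gm42727* on the strand opposite to *Pds5a*, had 9.5 reads on average against 1784 for *Pds5a*.

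The genes also differed in how far they scattered within a condition. The SD of log2 RPM around the condition means was 0.084 at the median of 8597 genes with at least 100 reads. In *Nipbl* it was 0.35, at percentile 99.9 of these genes, where counting alone gives 0.049. *Smc3* had 0.20 (percentile 97.2) and *Stag2* 0.16 (percentile 91.4). *Rad21* and *Ctcf* had low values in these libraries, with 0.032 and 0.031 (percentiles 3.23 and 2.80). Counting alone gives 0.026 for *Rad21* and 0.039 for *Ctcf*, so the SD of *Ctcf* was below that of counting.

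The scatter followed the same libraries in most of these genes. ESC + F/H-BAZ2Ar WT replicate 4 was the highest of its condition in 9 of the 10 genes, all but *Mau2*, and ESC + F/H-BAZ2Ar ΔTAM replicates 1 and 4 were above replicates 2 and 3 in 8, all but *Rad21* and *Ctcf*. Over the 8597 genes the first held in 2239 and the second in 1513. Both held in 7 of the 10 (*Smc1a*, *Smc3*, *Stag1*, *Stag2*, *Nipbl*, *Wapl* and *Pds5a*) and in 733 of all 8597 (8.53%). This order was read from the values and carries no test. GC content of the transcript was 38.1% in *Stag2*, 41.4% in *Wapl*, 41.9% in *Stag1*, 42.3% in *Smc3*, 42.4% in *Nipbl*, 43.2% in *Pds5a*, 44.3% in *Rad21*, 46.4% in *Ctcf*, 46.9% in *Smc1a* and 51.9% in *Mau2*, and its part in the order was not tested. With GC content and transcript length fitted and removed in each library, the log2 fold change of *Nipbl* was -0.34 (limma adjusted p = 0.0117), that of *Smc3* -0.22 (0.00826) and that of *Stag2* -0.45 (8.49e-08).

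**Figure D3:**
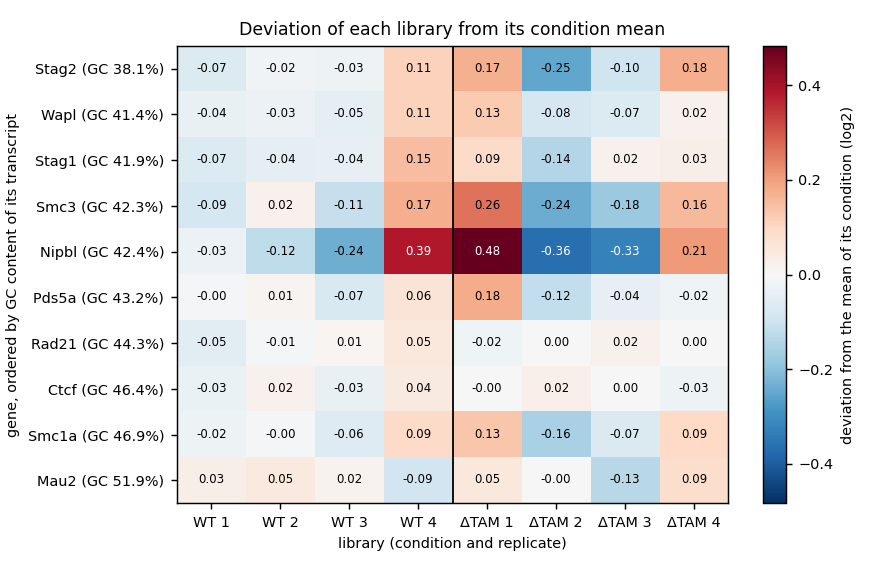
Deviation of each library (columns) from the mean of its condition in log2 units (colour and printed value), with genes in rows ordered by the GC content of the transcript. ESC + F/H-BAZ2Ar WT replicate 4 and ESC + F/H-BAZ2Ar ΔTAM replicates 1 and 4 are above their mean in *Nipbl*, *Smc3* and *Stag2*, by 0.39, 0.48 and 0.21 in *Nipbl*, while *Rad21* and *Ctcf* stay near 0.

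A ratio of 2 genes within a library does not depend on how libraries are scaled, and 8 such ratios were compared by a two-sided exact permutation test over libraries, in which the smallest p possible is 0.0286. The log2 ratio of *Stag1* to *Stag2* was 0.605, 0.5801, 0.592 and 0.644 in ESC + F/H-BAZ2Ar WT and 0.916, 1.103, 1.108 and 0.847 in ESC + F/H-BAZ2Ar ΔTAM. The ratio was higher in every ESC + F/H-BAZ2Ar ΔTAM library and 1.31-fold higher on average (exact permutation p = 0.0286, adjusted over 8 ratios 0.0762). *Stag1* reads were thus more frequent relative to *Stag2* reads, by counts of reads and not of molecules, since the transcripts differ in length.

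The log2 ratio of *Wapl* to *Pds5a* was 0.58 to 0.67 in ESC + F/H-BAZ2Ar WT and 0.78 to 0.88 in ESC + F/H-BAZ2Ar ΔTAM, a difference of 0.21 without overlap (exact permutation p = 0.0286, adjusted 0.0762). That of *Pds5a* to *Pds5b* was 1.16 to 1.23 and 0.99 to 1.13, a difference of -0.13 without overlap and with the same p. No ratio passed an adjusted p of 0.05, for which at least 5 of the 8 would have had to reach the smallest p. The ratio of *Rad21* to *Smc3* differed by 0.34 and that of *Nipbl* to *Wapl* by -0.49, both with overlap (exact permutation p = 0.0571). *Nipbl* to *Mau2* differed by -0.35 (exact permutation p = 0.229) and *Smc1a* to *Smc3* by -0.13 (exact permutation p = 0.143). *Ctcf* to *Rad21* differed least between the conditions of the 8 ratios, with -1.18 ± 0.034 (SD, n = 4) in ESC + F/H-BAZ2Ar WT and -1.17 ± 0.026 (SD, n = 4) in ESC + F/H-BAZ2Ar ΔTAM, with an exact permutation p of 0.429.

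**Figure D4:**
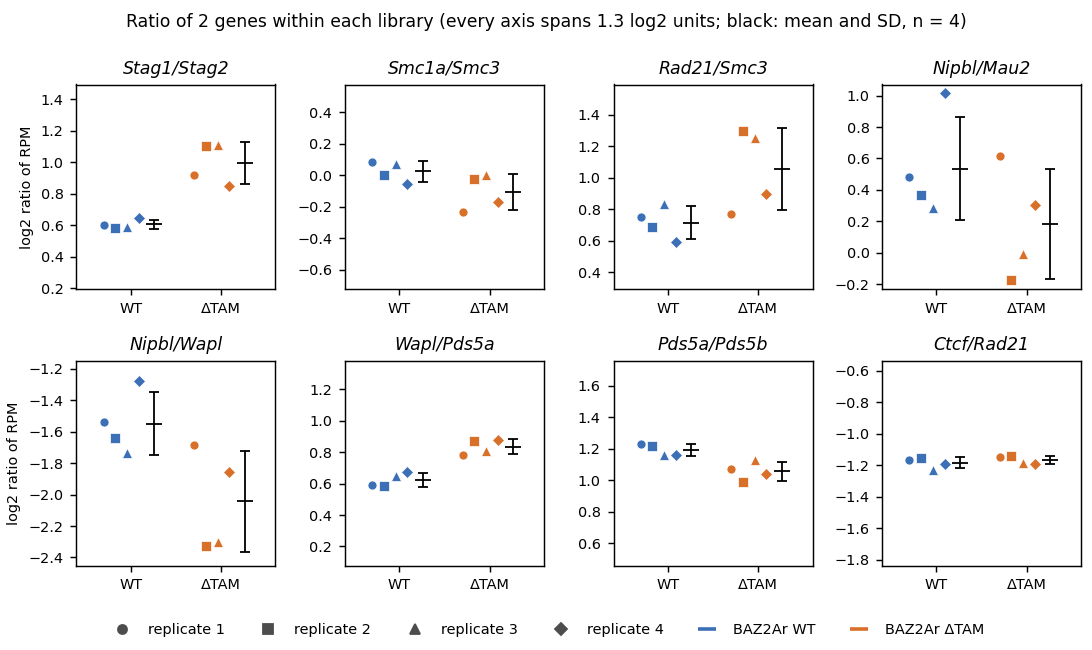
Log2 ratio of RPM of 2 genes within each library (vertical axes, each spanning the same number of log2 units), for ESC + F/H-BAZ2Ar WT (blue) and ESC + F/H-BAZ2Ar ΔTAM (orange), with mean and SD in black. *Stag1*/*Stag2*, *Wapl*/*Pds5a* and *Pds5a*/*Pds5b* do not overlap between the conditions, and *Ctcf*/*Rad21* stays at -1.18 and -1.17.

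Levels between genes were compared per kilobase of annotated exon, since the deposited RPKM divide by the whole genomic span. In ESC + F/H-BAZ2Ar WT, *Rad21* was the highest at 13.8 ± 0.405 RPKM per exon length (SD, n = 4) and *Wapl* came next at 8.44 ± 0.455. *Smc3* (6.46 ± 0.595) and *Smc1a* (6.30 ± 0.290), which are used in equal numbers in the ring, overlapped, and *Ctcf* followed at 5.30 ± 0.142. *Nipbl*, *Stag1*, *Stag2* and *Pds5a* formed a group from 1.87 to 2.05 in which neighbours overlapped, and *Mau2* was the lowest at 1.43 ± 0.0614. In ESC + F/H-BAZ2Ar ΔTAM *Rad21* (15.2 ± 0.177) and *Wapl* (9.38 ± 0.633) kept the first places, *Ctcf* (5.87 ± 0.0829) overlapped *Smc3* (5.63 ± 0.967) and was above every library of *Smc1a* (4.99 ± 0.473), and *Stag2* was the lowest at 1.36 ± 0.195, overlapping *Mau2*. The ratio of the highest to the lowest gene over all libraries was 10.1 per exon length, 8.42 with the longest transcript as the length, and 32.5 on the deposited span. With the longest transcript the order changed too: in ESC + F/H-BAZ2Ar WT *Pds5a* was at 4.05, *Stag1* at 3.87, *Stag2* at 2.54, *Mau2* at 2.44 and *Nipbl*, now the lowest, at 2.05. The order was different again on the deposited span, on which *Stag1* with a span of 362 kb became the lowest at 0.0662 RPKM in ESC + F/H-BAZ2Ar WT.

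**Figure D5:**
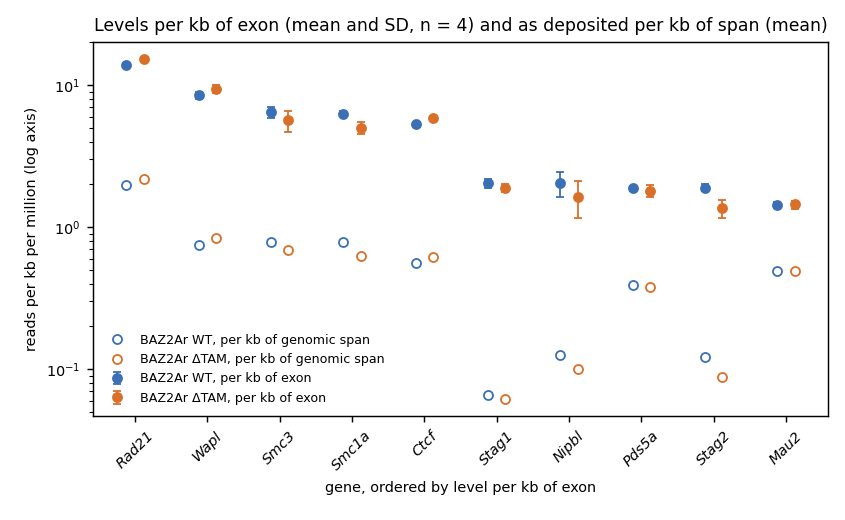
Level of each gene in RPKM on a log axis, per kilobase of exon (filled, mean and SD over 4 libraries) and as deposited per kilobase of genomic span (open, mean). *Rad21* leads on both, and *Stag1*, with the longest span, drops to the last place per span.

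Other genes of the cohesin cycle and related complexes were read in the same fit, with the background of 21.6% called higher and 21.9% called lower. Of 10 genes of the cohesin cycle outside the ring, 2 rose, 1 fell and 7 were not called. *Pttg1*, which encodes securin, the inhibitor of separase, rose from 6.78 ± 0.372 to 13.5 ± 0.486 RPM (SD, n = 4), by 0.99 on the log2 scale (limma adjusted p = 6.85e-12). *Esco2*, an acetyltransferase of SMC3, fell from 24.7 ± 1.76 to 18.95 ± 2.19 RPM (SD, n = 4), at -0.39 on the log2 scale (limma adjusted p = 3.77e-05). The third call, *Cdca5*, encoding sororin, rose by 0.27 on the log2 scale and is named after its value was seen.

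Of the 4 meiotic paralogs 3 were tested. *Stag3*, the germline paralog of the STAG genes, had 19.8, 19.01, 18.7 and 20.4 RPM in ESC + F/H-BAZ2Ar WT and 15.9, 13.3, 15.2 and 14.6 RPM in ESC + F/H-BAZ2Ar ΔTAM. It was lower in every ESC + F/H-BAZ2Ar ΔTAM library than in any ESC + F/H-BAZ2Ar WT library (log2 fold change -0.41, limma adjusted p = 1.62e-06). *Rec8*, a meiotic kleisin, had 3.74 and 3.78 RPM on average with a log2 fold change of 0.013 (limma adjusted p = 0.918), *Smc1b* was not called (log2 fold change -0.077, limma adjusted p = 0.778), and *Rad21l* had at most 1 read in a library.

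In condensin and the SMC5/6 complex, the other SMC rings, genes were called in both directions, and the genes named here without a value, as well as *Maz*, were chosen after their values were seen. Of 8 condensin genes 1 rose (*Ncapg2*, log2 fold change 0.21) and 4 fell (*Ncapg* by 0.22 on the log2 scale, with *Smc4*, *Ncapd2* and *Ncaph2*), and the median was -0.099. Of 8 SMC5/6 genes tested 1 rose (*Nsmce4a*, 0.16) and 3 fell (*Smc5* by 0.34 on the log2 scale, with *Nsmce2* and *Slf1*), and the median was -0.13. Of 8 other DNA-binding proteins linked to chromatin loops 3 rose and none fell: *Yy1* (log2 fold change 0.45), *Patz1* (0.39) and *Maz* (0.17). In a list of 20 cell cycle genes 12 rose, led by *Ccne1* (0.35) and *Cdc6* (0.40), and 2 fell (*Bub1* and *Mcm6*), with a median of 0.16 against -0.0041 over all genes. Any part of the cell cycle genes in the levels of the cohesin genes was not tested.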

How the data were processed

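RNA was measured by RNA-seq in 8 libraries, 4 of each line. According to the submitters' processing notes the authors used FastQC, Trimmomatic 0.36, STAR, mm10 (GRCm38) and DESeq2, and the study's methods add removal of ribosomal reads and exon coverage per gene from a custom pipeline. The authors deposited RPKM per library, without pooling. Which annotation release was counted, whether strand was used and how reads mapping to several places were handled are not given in the sources used here. Multiplied by the distance between gene start and end, the deposited RPKM gave RPM in whole steps of 1 read (99.5% of values above 0 within 0.02 reads), so the length used was the genomic span. From 51288 entries, 386 repeats of a symbol were set aside, which left 50902 genes. No value column was left without a sample.

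RPM were tested as log2(RPM + 0.1) for genes with a mean of at least 0.2 RPM with limma 3.58.1 (lmFit, eBayes with a trend, no covariates) in R 4.3.3, Benjamini-Hochberg adjustment over 12634 genes and a threshold of 0.05. Fold changes are on that scale. Exon lengths and GC content were taken from GENCODE vM21, in which 94.5% of the genes had the same symbol and chromosome. Ratios were tested by exact permutation. Counting intervals would cover counting error only, since reads without molecular identifiers are not independent molecules, and none is given. The fit was tested on simulated data. Python 3.11.15 and matplotlib drew the figures.

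The members and gene lists were chosen with earlier results of these data known. Named were the 10 members, *Baz2a*, *Pds5b*, the meiotic paralogs, and in each other list the 2 genes with the smallest p among those called. Other genes named were chosen after their values were seen. The alternatives, 22 for most genes, were the pseudocount (0.02 or 1 RPM), the filter (none or 2 RPM), log2(RPKM + 0.1), median-ratio and quantile scaling, eBayes without a trend or robust, voom on recovered reads, the replicate number in the model and each library left out, and, chosen after seeing the data, GC and length correction, 3 libraries left out and another transcript length.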

Additional observations from a re-analysis of the deposited data

Results flagged for a closer look

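The check covered 42 groups of 4 libraries, each a gene or a log2 ratio of 2 genes in a condition. The highest or lowest library stood apart from the other 3 by Dixon's ratio in 2 cases, both of them genes. Chance flags about 1 in 20 groups. *Stag1* in ESC + F/H-BAZ2Ar WT replicate 4 was at 26.5 RPM, against 22.8 to 23.3 RPM in the other 3 libraries. *Wapl* in the same library was at 60.4 RPM, against 54.1 to 54.7 RPM. Without this library the log2 fold change of *Stag1* was -0.049 (limma adjusted p = 0.447) and that of *Wapl* 0.19 (limma adjusted p = 0.00108).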

How the results depend on the processing

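Of 219 alternative values for the 10 genes, 192 kept direction and side of the threshold, 21 lost a call (*Smc3*, *Nipbl* and *Wapl*), 2 gained one (*Stag1* and *Pds5a*) and 4 changed sign (*Mau2*). On log2(RPKM + 0.1), 3228 of all genes were called, 1792 higher and 1436 lower, against 5498, 2730 and 2768, where 9002 genes in place of 12634 were tested. With no filter, a filter of 2 RPM, log2(RPKM + 0.1), eBayes without a trend or robust eBayes, 2 of the 10 genes were called lower in place of 4. Among the other lists 7 genes in place of 11 were called lower on log2(RPKM + 0.1) and in eBayes without a trend. The cause was not tested. With each library left out in turn, 4833 to 5457 genes were called, 3 of the 10 were called higher each time, 2 to 5 were called lower, and 3 to 5 of the 8 ratios did not overlap (5 without ESC + F/H-BAZ2Ar WT replicate 3 or ESC + F/H-BAZ2Ar ΔTAM replicate 1). The 10 genes had 2 called lower without ESC + F/H-BAZ2Ar WT replicate 2 or 4 and without ESC + F/H-BAZ2Ar ΔTAM replicate 2 or 3. The sign of *Mau2* turned without ESC + F/H-BAZ2Ar WT replicate 4 and ESC + F/H-BAZ2Ar ΔTAM replicates 1 and 4, with a range from -0.022 to 0.053, and it was -0.045 without the 3 libraries that stood apart in transcripts low in GC. That of *Rec8* ranged from -0.037 to 0.062, negative without replicate 3 of either condition, and that of *Smc1b* from -0.22 to 0.065, positive without ESC + F/H-BAZ2Ar ΔTAM replicate 3. The ratio of the highest to the lowest level, 10.1 per exon length, was 32.5 per deposited span and 8.42 per longest transcript.

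The labels number the replicates 1 to 4 in both conditions without saying what they share. Deviations of libraries with the same number correlated at 0.186, 0.205, 0.163 and 0.0899 over 8597 genes, and not every library correlated best with its own number. With the replicate block 5829 genes were called, 3 of the 10 genes higher and 4 lower, the same counts of the 10 as without it.

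Of the paralogs named, *Smc1b* had 16 to 29 reads in a library, *Ctcfl* 1 to 10 and *Rad21l* 0 to 1.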
